A study of Homo sapiens with 9 samples.

Results

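The messages of 44 genes that act in G2 and mitosis were followed in human Hap1 cells that live on a mutant or a normal copy of SARS2, the seryl-tRNA synthetase of mitochondria. The genes were taken by name from a list of cyclins, mitotic kinases, kinetochore, spindle and anaphase genes. Each of the 44 had 1 entry among 78894 gene entries, and all 44 passed the filter on low counts that left 16908 genes for testing. Hap1 is a near-haploid line that came from a chronic myeloid leukaemia line. All 9 libraries carried the same background: the endogenous SARS2 gene was deleted (∆SARS2), a FLAG-tagged copy (SARS2-1xFLAG) was under doxycycline control, and a further myc-tagged copy (SARS2+int14-myc) was expressed all the time. That last copy was R227Q in 3 libraries, H448L in 3 libraries and wild type (WT) in 3 libraries. Doxycycline had been withheld for 6 days in every group, so the WT libraries share the deletion and the withdrawal with the mutant ones. The labels do not say whether a genotype is 1 clone or whether its libraries came from separate cultures, so p-values measure the spread between libraries, which may be technical.

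A cell that leaves S phase raises cyclin A and then cyclin B, which activate CDK1; CDC25 phosphatases remove the inhibitory phosphates from CDK1, and PLK1 and the Aurora kinases build the spindle. The spindle checkpoint holds the anaphase-promoting complex inactive until kinetochores are attached, after which CDC20 directs the destruction of securin and cyclin B, and separase cuts cohesin. The messages of most of these genes are made late in the cycle: the MuvB core, in turn with the DREAM repressor and with B-MYB and FOXM1, binds a promoter element named the cell cycle genes homology region (CHR), often beside CCAAT boxes bound by NF-Y. In bulk RNA a lower level of such a message in every cell and fewer cells in G2 or mitosis cannot be told apart.

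The sequencing depth was 9900892 to 12991050 counts per library, so 1 count was worth 0.077 to 0.101 CPM, the count scaled to equal library totals. The deposited column names begin with 1 of 2 codes, SDKYMR or 4LJFHN, 1 table each, called submissions here; the labels do not say in what else the 2 differ. R227Q library 1 and WT libraries 1 and 2 belong to SDKYMR, and R227Q libraries 2 and 3, all 3 H448L libraries and WT library 3 to 4LJFHN. The 2 submissions stood apart: 43.8% of the genes tested passed the threshold between them, and HBG1 and HBG2, the foetal globin genes, summed to 0 CPM in the 3 SDKYMR libraries and to 59.1 to 87.2 CPM in the 6 libraries of 4LJFHN. The summed level of 10 haematopoietic marker genes was accordingly 1.71 to 73.1 CPM in R227Q, 71.0 to 90.1 CPM in H448L and 1.71 to 71.3 CPM in WT, and its part in the results was not tested. For 8 fibroblast markers the sums were 1105 to 1587 CPM in R227Q, 1448 to 1466 CPM in H448L and 1118 to 1521 CPM in WT. The 6 neuronal and embryonic kidney line markers summed to 159.7 to 174.1 CPM in R227Q and 161.4 to 171.7 CPM in H448L, all below the 176 to 181.1 CPM of WT, and the 5 epithelial markers to 84.8 to 92.2 CPM in R227Q, above WT, and 79.2 to 89.8 CPM in H448L, against 78 to 81.5 CPM in WT. The fibroblast sum was mostly VIM, the neuronal and embryonic kidney sum TUBB3 and the epithelial sum KRT18. TUBB3 had 117.2, 108.9 and 108.5 CPM in R227Q and 107.3, 104.9 and 93.61 CPM in H448L, against 129.3, 133.7 and 120.6 CPM in WT. In 4LJFHN, NEFL was higher than WT in every mutant library, and PAX2 and LHX1 lay on both sides of WT. The part of these lists in the results was not tested either, and none of the 29 marker genes was at 0 in all 9 libraries. SARS2 itself averaged 8.04 CPM in R227Q, 8.16 CPM in H448L and 7.48 CPM in WT, with log2 fold changes of 0.18 ± 0.12 for R227Q and 0.28 ± 0.15 for H448L (SE), neither past the threshold; it shares 1492 exon bases with another annotated gene on its own strand and 349 with MRPS12 on the other, so its counts are uncertain. All fold changes below come from a fit with a term for the submission.

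Together the 44 genes made up less of the message in both mutants. Their summed level was 6154 CPM in R227Q library 1 of SDKYMR and 5684 and 5704 CPM in R227Q libraries 2 and 3 of 4LJFHN. The H448L libraries, all of 4LJFHN, had 5796, 5750 and 5734 CPM. WT libraries 1 and 2 of SDKYMR had 6673 and 6734 CPM, and WT library 3 of 4LJFHN had 6256 CPM. Every mutant library was below every WT library, and within each submission the distance was several times the spread between libraries of a genotype, though only 1 R227Q library is from SDKYMR and only 1 WT library from 4LJFHN. No test was made on the sum. Abundant genes such as CDC20, TOP2A and HMGB2 weigh most in it, and 24 of the 44 passed in neither comparison below. The share of counts in mitochondrially encoded messages moved the other way within each submission. In SDKYMR it was 5.94% in R227Q library 1, against 5.31% and 4.92% in WT libraries 1 and 2. In 4LJFHN it was 5.22% and 5.15% in R227Q libraries 2 and 3 and 5.24%, 4.82% and 4.67% in the H448L libraries, against 4.38% in WT library 3, and its part in the lower sum was not tested.

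**Figure D1:**
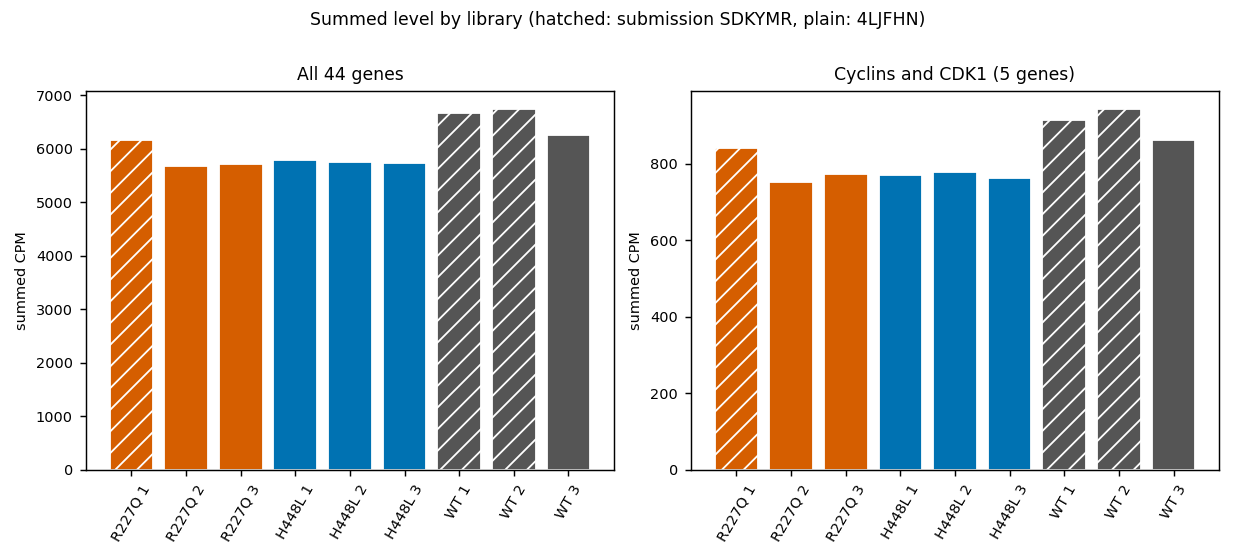
Summed CPM of all 44 genes (left) and of the 4 cyclins and CDK1 (right) in each of the 9 libraries, 1 bar a library, with SDKYMR libraries hatched. The 3 R227Q and 3 H448L bars lie below the 3 WT bars in both panels.

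In R227Q cells, 16 of the 44 genes were lower than in WT cells and 2 were higher at a Benjamini-Hochberg adjusted p under 0.05 (edgeR quasi-likelihood test over 16908 genes), and 26 did not pass. Of all genes tested, 9.91% were lower, 7.5% were higher and 17.4% were called in either direction. With upper-quartile scaling 3 of the 44 were higher and 14 lower, and over all genes 1565 were higher and 1335 lower in place of 1268 higher and 1676 lower. The median log2 fold change of the 44 was -0.07, beside 0.00 over all genes tested. In H448L cells, 13 of the 44 were lower, 0 were higher and 31 did not pass, where 4.99% of all genes tested were lower, 2.97% higher and 7.97% called either way. The median was -0.08 for the 44 and 0.01 over all genes. The members are mostly abundant genes, among which the share called lower was larger. Of 5543 genes with a mean of at least 30 CPM, a limit chosen after the values were seen, 20.95% were lower in R227Q and 11.98% in H448L, and 42 members reach that level, all 16 and all 13 called lower among them.

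The changes were small: the log2 fold changes of the genes called lower lay between -0.41 and -0.17 in R227Q and between -0.40 and -0.15 in H448L. Both comparisons use the same 3 WT libraries, so they are not independent, and their values are given side by side. All H448L libraries are from 4LJFHN, so WT libraries 1 and 2 enter the H448L values only by way of the R227Q libraries. The H448L values thus depend in part on R227Q. In H448L, HMMR was at -0.21 in the fit and -0.15 within 4LJFHN, and HMGB2 at -0.25 in the fit and -0.31 within 4LJFHN. The 11 genes called lower in both were CCNA2, CCNB1, PLK1, AURKA, BIRC5, KIF20A, HMMR, ECT2, CDC20, PTTG1 and HMGB2, which is 68.75% of those lower in R227Q and 84.62% of those lower in H448L. BUB1B, CENPA, CENPE, CENPF and MKI67 passed in R227Q only, and CCNB2 and MYBL2 in H448L only, but none of the 44 differed between H448L and R227Q by the test of that difference. SPC24 and ESPL1 were higher in R227Q. The other 24 passed in neither comparison.

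The counts lean on single libraries. Here and below, only libraries of the 2 groups compared were left out. Without R227Q library 1 the R227Q count was 8 and without WT library 3 it was 11. Over all genes, R227Q calls went from 2944 to 1278 and 1093 in the same 2 cases. CCNA2, CCNB1, BIRC5, KIF20A, ECT2 and HMGB2 were the 6 that passed with each R227Q or WT library left out in turn. Without WT library 3, the only WT library in the submission of the H448L libraries, the H448L count was 4. The fit then reaches WT only by way of the R227Q libraries, and H448L calls over all genes went from 1347 to 253. PLK1, CDC20 and PTTG1 were the 3 that passed with each H448L or WT library left out in turn. In 4LJFHN alone, 8 members were lower in R227Q and 7 in H448L, and without the submission term 1 was lower in each comparison. With the 2 groups of the comparison alone in the fit, so without the R227Q libraries, 7 were lower in H448L. PLK1 (-0.20, adjusted p = 0.0552) and PTTG1 (-0.17, adjusted p = 0.0754) did not pass there.

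**Figure D2:**
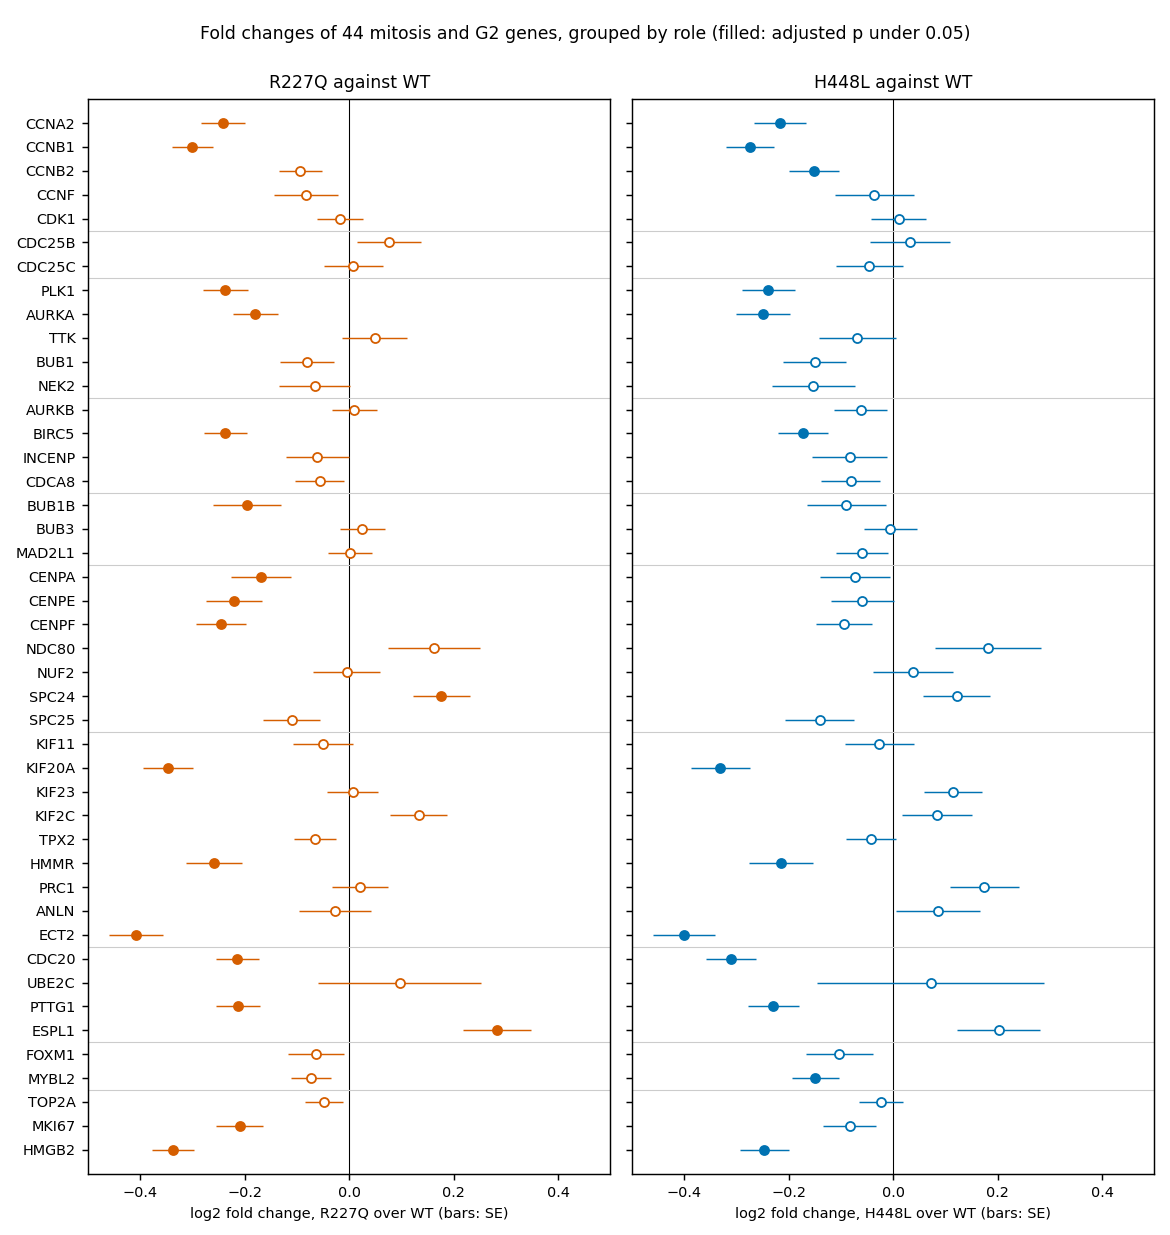
Log2 fold change of each of the 44 genes in R227Q over WT (left) and H448L over WT (right), with standard error bars, from 3 libraries a group; grey lines part the roles and filled points have an adjusted p under 0.05. The filled points lie between -0.41 and -0.15 but for SPC24 and ESPL1, at 0.18 and 0.28 in R227Q.

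Promoter sequence is a feature many of the genes share beyond their function. RefSeq windows on GRCh38.p14, from 250 bases before to 50 bases after an annotated start, were at hand for 36 of the 44 genes. Of these, 6 are shown from 130 bases before the start to 10 bases after it, 5′ to 3′ on the gene's strand, with CHR letters (TTTGAA or TTCGAA, either strand) and CCAAT (either strand) in capitals. CCNB1 and KIF20A were among the genes that fell in both mutants and hold CCAAT but no CHR letters; CDC20 and HMMR fell in both and hold the 2 kinds; ESPL1 was higher in R227Q; CDCA8 passed in neither. All 6 genes lie on the plus strand, and the stretches are chr5:69167020-69167159 for CCNB1, chr5:138178982-138179121 for KIF20A, chr1:43358851-43358990 for CDC20, chr5:163460502-163460641 for HMMR, chr12:53268169-53268308 for ESPL1 and chr1:37692386-37692525 for CDCA8.
CCNB1: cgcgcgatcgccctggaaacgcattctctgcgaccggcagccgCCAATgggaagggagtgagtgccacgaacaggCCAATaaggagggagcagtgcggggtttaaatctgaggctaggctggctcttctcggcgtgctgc
KIF20A: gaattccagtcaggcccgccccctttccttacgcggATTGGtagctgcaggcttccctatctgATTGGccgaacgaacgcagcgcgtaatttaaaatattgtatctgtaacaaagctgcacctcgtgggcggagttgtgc
CDC20: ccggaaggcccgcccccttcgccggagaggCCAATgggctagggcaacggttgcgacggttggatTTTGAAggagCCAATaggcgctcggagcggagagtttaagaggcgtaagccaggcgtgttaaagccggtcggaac
HMMR: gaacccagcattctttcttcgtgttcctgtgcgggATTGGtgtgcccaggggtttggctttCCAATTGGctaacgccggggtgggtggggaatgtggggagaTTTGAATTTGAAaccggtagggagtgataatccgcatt
ESPL1: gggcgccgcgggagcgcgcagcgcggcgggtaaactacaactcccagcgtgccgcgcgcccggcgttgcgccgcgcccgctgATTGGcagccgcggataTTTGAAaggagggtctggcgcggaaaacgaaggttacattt
CDCA8: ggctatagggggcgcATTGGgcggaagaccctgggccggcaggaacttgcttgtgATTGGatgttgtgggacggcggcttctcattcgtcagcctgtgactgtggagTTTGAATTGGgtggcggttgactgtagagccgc

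CHR letters were found in the 300-base windows of 26 of the 36 genes (72.2%), beside 19.5% of 27305 genes with a window in the same table. Within 40 bases before the start they were found in 17 of 36 (47.2%), beside 2.81% of all genes. CCAAT was found in 29 of 36 (80.6%), beside 39.7%. The GC-box core GGCGG was in 36 of 36, beside 61.5%, and TTTCGCGC, which overlaps the E2F consensus, in 1 of 36, beside 0.63%; all were searched on both strands. Of the 15 genes with a window that were lower in R227Q or H448L, 9 (60%) held CHR letters and 12 (80%) held CCAAT. Of the 21 that were not lower, 17 (81.0%) held CHR letters and 17 (81.0%) held CCAAT. Within 40 bases before the start, 6 of the 15 (40%) and 11 of the 21 (52.4%) held CHR letters; the differences between these shares were not tested. The letters are a description of these windows and say nothing of binding.

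Cyclins A2 and B1 fell in both mutants, cyclin B2 passed in H448L and not in R227Q, and CDK1 passed in neither. CCNB1 encodes cyclin B1, the partner of CDK1 at mitotic entry, and had 236, 229 and 244 CPM in R227Q libraries 1, 2 and 3, 246, 246 and 240 CPM in the H448L libraries, against 283, 285 and 294 CPM in the WT libraries. All 6 mutant libraries were below all 3 WT libraries, and the libraries of the 2 submissions lay close together. The log2 fold change was -0.30 ± 0.04 in R227Q (adjusted p = 2.68e-06) and -0.27 ± 0.05 in H448L (adjusted p = 0.000229), the second at -0.24 with an adjusted p of 0.102 without WT library 3. CCNA2, cyclin A2, which acts from S phase to early mitosis, had 132, 114 and 113 CPM in R227Q and 116, 117 and 118 CPM in H448L, against 151, 156 and 134 CPM in WT. Again no mutant library reached the lowest WT library, although R227Q library 1 came within 3 CPM of it. The fold changes were -0.24 ± 0.04 (adjusted p = 0.00013) in R227Q and -0.22 ± 0.05 (adjusted p = 0.00573) in H448L, where the call ended without WT library 3 (-0.21, adjusted p = 0.216). CCNB2, cyclin B2, was at -0.15 ± 0.05 in H448L (adjusted p = 0.0455), a call that ended when any library but H448L library 1 was left out (-0.16 to -0.12), and at -0.09 ± 0.04 in R227Q, which did not pass.

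CDK1 had 148, 115 and 110 CPM in R227Q and 114, 114 and 121 CPM in H448L, against 144, 151 and 114 CPM in WT. The high values are those of SDKYMR whatever the genotype, and the groups overlap within each submission. Its fold change was -0.02 ± 0.04 in R227Q and 0.01 ± 0.05 in H448L. CCNF, cyclin F, a ubiquitin ligase subunit and not a CDK partner, was at -0.08 ± 0.06 in R227Q and -0.04 ± 0.08 in H448L. The activators of CDK1 did not pass either: CDC25B was at 0.08 ± 0.06 in R227Q and 0.03 ± 0.08 in H448L, and CDC25C at 0.01 ± 0.06 in R227Q and -0.05 ± 0.06 in H448L.

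Of 5 mitotic kinases, PLK1 and AURKA fell in both mutants. PLK1, the polo kinase of centrosome maturation and mitotic exit, had 181, 131 and 129 CPM in R227Q and 129, 127 and 132 CPM in H448L, against 214, 222 and 147 CPM in WT. The R227Q library of SDKYMR was above the WT library of 4LJFHN, but within each submission every mutant library was lower than every WT library. The fold changes were -0.24 ± 0.04 (adjusted p = 0.000167) in R227Q and -0.24 ± 0.05 (adjusted p = 0.00259) in H448L. With H448L and WT alone in the fit, the H448L value was -0.20 (adjusted p = 0.0552). AURKA, the Aurora kinase of spindle poles, had 135, 110 and 107 CPM in R227Q and 103, 108 and 103 CPM in H448L, against 146, 153 and 123 CPM in WT, with the same order within each submission. It was at -0.18 ± 0.04 (adjusted p = 0.004) in R227Q and -0.25 ± 0.05 (adjusted p = 0.00234) in H448L. Both R227Q calls ended without R227Q library 1, PLK1 at -0.19 (adjusted p = 0.0695) and AURKA at -0.20 (adjusted p = 0.0645). Without WT library 3, AURKA was at -0.17 in R227Q (adjusted p = 0.119) and -0.23 in H448L (adjusted p = 0.168). The checkpoint kinases TTK and BUB1 and the centrosome kinase NEK2 did not pass, with values of 0.05, -0.08 and -0.07 in R227Q and of -0.07, -0.15 and -0.15 in H448L.

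Of the 4 subunits of the chromosomal passenger complex, which corrects faulty attachments and guides cytokinesis, 1 passed the threshold. BIRC5, survivin, had 186, 173 and 182 CPM in R227Q and 189, 189 and 184 CPM in H448L, against 215, 220 and 208 CPM in WT. No mutant library reached a WT library. The fold changes were -0.24 ± 0.04 (adjusted p = 0.000111) in R227Q and -0.17 ± 0.05 (adjusted p = 0.0215) in H448L, and the second did not pass without WT library 3 (-0.17, adjusted p = 0.309) or H448L library 2 (-0.17, adjusted p = 0.0559). The kinase of the complex, AURKB, was at 0.01 ± 0.04 in R227Q and -0.06 ± 0.05 in H448L, and did not pass. The scaffold INCENP was at -0.06 ± 0.06 in R227Q and -0.08 ± 0.07 in H448L, and borealin, CDCA8, at -0.06 ± 0.05 in R227Q and -0.08 ± 0.06 in H448L.

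The 3 genes grouped here under the spindle checkpoint were BUB1B, BUB3 and MAD2L1. BUB1B, which encodes BUBR1, had 46.6, 50.5 and 59.2 CPM in R227Q and 61.1, 55.4 and 59.5 CPM in H448L. The WT libraries had 58.1, 53.5 and 59.5 CPM. R227Q library 3 was level with WT library 3 and the H448L libraries lay on both sides of it. The R227Q fold change was -0.20 ± 0.07 (adjusted p = 0.0359), and the call ended on leaving out WT library 1 (-0.16), WT library 3 (-0.27), R227Q library 1 (-0.12) or R227Q library 2 (-0.15). BUB3, its partner, was at 0.02 ± 0.04 in R227Q and -0.01 ± 0.05 in H448L, and MAD2L1 at 0.00 ± 0.04 in R227Q and -0.06 ± 0.05 in H448L.

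At the kinetochore the 7 genes went different ways. CENPF, a large protein of the outer kinetochore and the nuclear matrix, had 154, 206 and 184 CPM in R227Q and 222, 209 and 232 CPM in H448L, against 177, 170 and 238 CPM in WT. CENPE, the kinetochore motor, had 48.5, 68.9 and 62.8 CPM in R227Q and 72.8, 72.6 and 76.3 CPM in H448L, against 56.8, 56.8 and 75.3 CPM in WT. Both were lower in SDKYMR than in 4LJFHN in WT and R227Q alike, and within each submission the R227Q libraries were below the WT libraries. CENPF was at -0.25 ± 0.05 (adjusted p = 0.000424) and CENPE at -0.22 ± 0.05 (adjusted p = 0.00398) in R227Q, and in H448L CENPF was at -0.09 ± 0.05 and CENPE at -0.06 ± 0.06, which did not pass. Without WT library 3 neither R227Q call held (CENPF -0.19, adjusted p = 0.112; CENPE -0.24, adjusted p = 0.0732), and CENPE also missed without R227Q library 1 (-0.21, adjusted p = 0.0967). CENPA, the histone variant of centromeres, was at -0.17 ± 0.06 in R227Q (adjusted p = 0.0403), a call that ended on leaving out any library but R227Q library 2, with values from -0.23 to -0.10.

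The NDC80 complex is the main microtubule contact of the kinetochore, and none of its 4 subunits was called lower. SPC24 was higher in R227Q at 0.18 ± 0.05 (adjusted p = 0.0237), with 57.5, 61.2 and 64.4 CPM in R227Q and 59.6, 62.9 and 60.2 CPM in H448L, against 49.2, 52.3 and 55 CPM in WT. Every mutant library was above every WT library. The call ended without WT library 1 (0.16), WT library 3 (0.17), R227Q library 1 (0.18) or R227Q library 3 (0.16). The H448L value of 0.12 ± 0.06 did not pass. NDC80 itself was at 0.16 ± 0.09 in R227Q and 0.18 ± 0.10 in H448L, NUF2 at -0.01 ± 0.06 in R227Q and 0.04 ± 0.08 in H448L, and SPC25 at -0.11 ± 0.05 in R227Q and -0.14 ± 0.07 in H448L, none of them past the threshold. Whether counting used strand is not known here. Among genes called lower, CCNA2 shares 254 exon bases with EXOSC9, KIF20A 132 with BRD8 and HMMR 113 with HMMR-AS1 on the other strand, and PLK1 shares 553 with an antisense RNA. On their own strand BUB1B shares 457 with the read-through gene BUB1B-PAK6 and CENPA 138 with SLC35F6, so these counts are uncertain.

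Motors and cytokinesis genes held the largest fold change of the 44. ECT2, the exchange factor that activates RhoA at the cleavage furrow, had 55.6, 65.9 and 68.4 CPM in R227Q and 69.8, 70.5 and 67.4 CPM in H448L, against 69.7, 69.4 and 92.7 CPM in WT. WT library 3 stood well above all others, and within each submission the mutant libraries were below the WT libraries. The fold change was -0.41 ± 0.05 (adjusted p = 1.32e-06) in R227Q, where the message fell by 24.7%, and -0.40 ± 0.06 (adjusted p = 4.5e-05) in H448L, with -0.30 (adjusted p = 0.112) in H448L without WT library 3. KIF20A, a kinesin of the central spindle, had 95.7, 79.1 and 83.0 CPM in R227Q and 83.8, 80.0 and 84.2 CPM in H448L, against 124, 117 and 103 CPM in WT. The 2 mutants were below WT in every library, at -0.35 ± 0.05 (adjusted p = 4.93e-06) in R227Q and -0.33 ± 0.06 (adjusted p = 0.000281) in H448L, and the H448L call ended without WT library 3 (-0.33, adjusted p = 0.0559). HMMR, a spindle assembly factor, was at -0.26 ± 0.05 (adjusted p = 0.0008) in R227Q and -0.21 ± 0.06 (adjusted p = 0.0254) in H448L. HMMR was at -0.16 (adjusted p = 0.192) in R227Q without R227Q library 1. In H448L it was at -0.37 without WT library 3 and ended as a call without WT library 1, H448L library 1 or H448L library 2 (-0.21, -0.21 and -0.20).

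The other 6 genes of that group did not pass. KIF11, the motor that pushes spindle poles apart, was at -0.05 in R227Q and -0.03 in H448L, and KIF2C, a microtubule depolymerase, at 0.13 in R227Q and 0.08 in H448L. KIF23, the motor of centralspindlin and thus a partner of ECT2 in cytokinesis, was at 0.01 in R227Q and 0.11 in H448L. TPX2, an activator of AURKA, was at -0.07 in R227Q and -0.04 in H448L, and ANLN, the anillin scaffold of the contractile ring, at -0.03 in R227Q and 0.08 in H448L. PRC1, which bundles central spindle microtubules, was at 0.02 in R227Q and 0.17 in H448L, but shares 3181 exon bases with another annotated gene on its own strand, so its counts are uncertain.

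**Figure D3:**
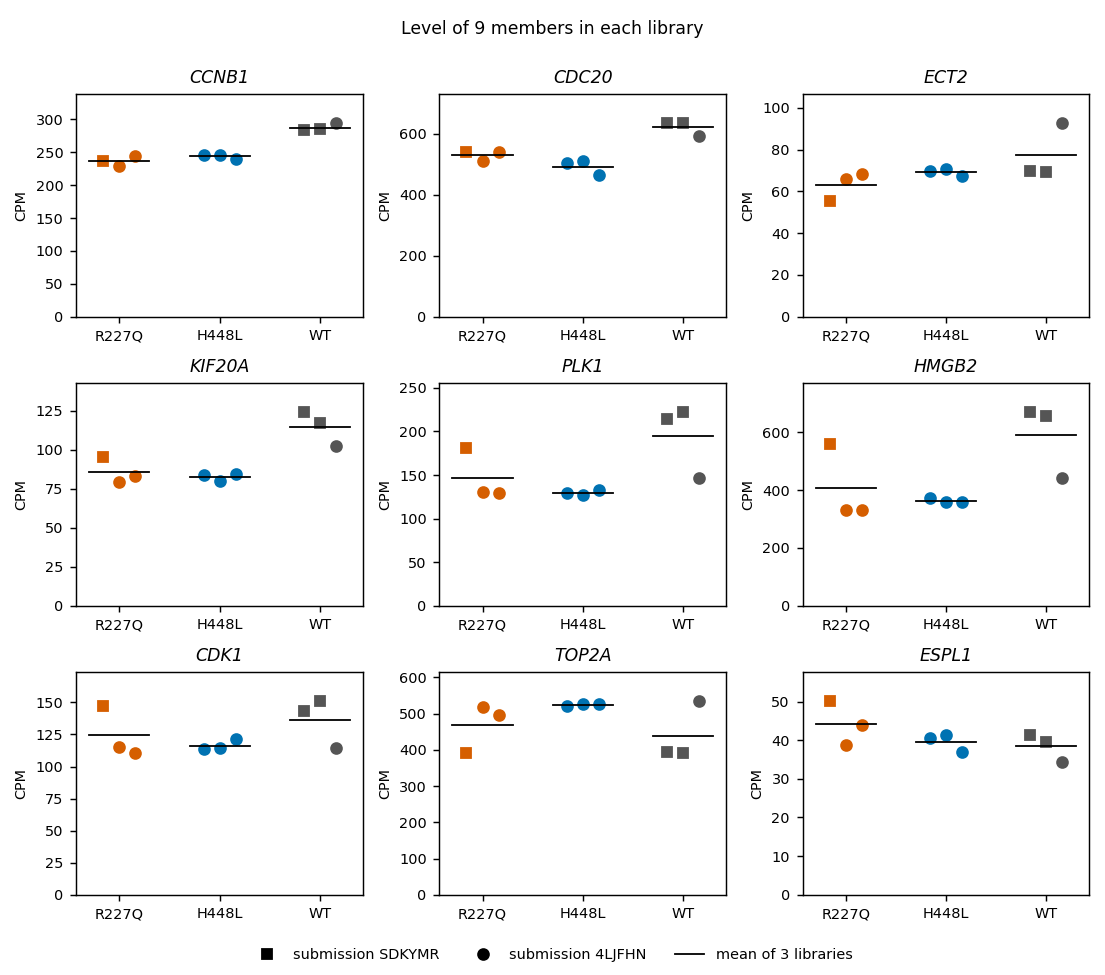
CPM of 9 genes in each library, with R227Q, H448L and WT from left to right; squares are SDKYMR libraries, circles 4LJFHN libraries and lines the mean of 3 libraries. CCNB1, CDC20 and KIF20A part WT from both mutants in all libraries, CDK1 and TOP2A part the submissions, and ESPL1 runs higher in R227Q within each submission.

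Of the 4 genes of anaphase, CDC20 and PTTG1 fell in both mutants and ESPL1 rose in R227Q. CDC20, the activator of the anaphase-promoting complex, had 538, 510 and 541 CPM in R227Q and 502, 509 and 464 CPM in H448L, against 634, 634 and 592 CPM in WT. No mutant library reached the lowest WT library. The fold change was -0.21 ± 0.04 (adjusted p = 0.000368) in R227Q and -0.31 ± 0.05 (adjusted p = 6.42e-05) in H448L. PTTG1, securin, the inhibitor of separase, had 327, 354 and 345 CPM in R227Q and 352, 330 and 343 CPM in H448L, against 390, 406 and 380 CPM in WT, again with no overlap. It was at -0.21 ± 0.04 (adjusted p = 0.000532) in R227Q and -0.23 ± 0.05 (adjusted p = 0.0026) in H448L. Without R227Q library 1 the R227Q values were -0.18 (adjusted p = 0.0613) for CDC20 and -0.13 (adjusted p = 0.172) for PTTG1. Both H448L calls held with each H448L or WT library left out. With H448L and WT alone in the fit, PTTG1 did not pass in H448L (-0.17, adjusted p = 0.0754), and in 4LJFHN alone it was at -0.18.

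ESPL1, which encodes separase itself, had 50.1, 38.7 and 44 CPM in R227Q and 40.6, 41.4 and 37 CPM in H448L, against 41.3, 39.5 and 34.4 CPM in WT. In both submissions the R227Q libraries were above WT, and the 3 groups overlap across submissions. The fold change was 0.28 ± 0.07 (adjusted p = 0.0026) in R227Q, a rise of 21.6%, with 0.26 (adjusted p = 0.118) without R227Q library 1, and 0.20 ± 0.08 in H448L, which did not pass. UBE2C, the ubiquitin-conjugating enzyme of the complex, was the scarcest of the 44, with 27 to 88 counts a library; its values of 0.10 ± 0.16 in R227Q and 0.07 ± 0.22 in H448L leave changes of the size seen in CCNB1 undetectable at this depth.

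Of the 2 transcription factors of late-cycle genes, MYBL2 passed in H448L and FOXM1 in neither mutant. MYBL2, B-MYB, had 414, 320 and 326 CPM in R227Q and 310, 310 and 302 CPM in H448L, against 426, 449 and 333 CPM in WT. Within each submission every mutant library was below WT, by less than the gap between the submissions. The fold change was -0.15 ± 0.04 in H448L (adjusted p = 0.0363), lost without WT library 2 (-0.14), WT library 3 (-0.18), H448L library 2 (-0.15) or H448L library 3 (-0.13), and -0.07 ± 0.04 in R227Q, which did not pass. FOXM1 had 81.0, 73.2 and 68.6 CPM in R227Q and 65.4, 66.9 and 75.5 CPM in H448L, against 83.9, 86.3 and 72.4 CPM in WT. The groups overlap in 4LJFHN, and the values of -0.06 ± 0.05 in R227Q and -0.10 ± 0.06 in H448L did not pass. FOXM1 shares 781 exon bases with ITFG2 on the other strand.

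TOP2A and MKI67 are both used as marks of cycling cells; MKI67 passed in R227Q and TOP2A in neither mutant, and the difference between the genes was not tested. TOP2A, the topoisomerase that untangles chromosomes, had 392, 517 and 496 CPM in R227Q and 522, 525 and 527 CPM in H448L, against 393, 392 and 534 CPM in WT. Its level followed the submission, with fold changes of -0.05 ± 0.04 in R227Q and -0.02 ± 0.04 in H448L. MKI67, Ki-67, which coats mitotic chromosomes, had 144, 185 and 172 CPM in R227Q and 194, 197 and 207 CPM in H448L, against 160, 156 and 214 CPM in WT. The R227Q libraries were lower than WT in both submissions, at -0.21 ± 0.04 (adjusted p = 0.00106), or -0.14 (adjusted p = 0.207) without WT library 3, and the H448L value of -0.08 ± 0.05 did not pass. HMGB2, a chromatin protein abundant in dividing cells, had 560, 331 and 330 CPM in R227Q and 372, 359 and 358 CPM in H448L, against 670, 656 and 442 CPM in WT. It was lower than WT within each submission and much higher in SDKYMR than in 4LJFHN, with fold changes of -0.34 ± 0.04 (adjusted p = 4.72e-07) in R227Q and -0.25 ± 0.05 (adjusted p = 0.000919) in H448L. Without WT library 3 the H448L value was -0.13 (adjusted p = 0.426).

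Because R227Q libraries are found in both submissions, their difference from WT can be given for each. The fit joins these differences, so the direction of the called genes in both is largely set by their choice and is no separate check. CCNB1 was at -0.28 within SDKYMR and -0.33 within 4LJFHN on the log2 CPM scale, KIF20A at -0.34 within SDKYMR and -0.35 within 4LJFHN, and CCNA2 at -0.23 within SDKYMR and -0.25 within 4LJFHN. Others varied more: HMMR was at -0.37 within SDKYMR and -0.15 within 4LJFHN, and HMGB2 at -0.25 within SDKYMR and -0.43 within 4LJFHN. Counted over all 44, 23 genes were lower in every R227Q library than in every WT library of the same submission, beside 24.8% of all genes, and 5 were higher, beside 23.1%. The H448L libraries meet a single WT library in 4LJFHN: 26 genes were lower in all 3 than in it, beside 29.7% of all genes, and 6 were higher, beside 31.5%.

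**Figure D4:**
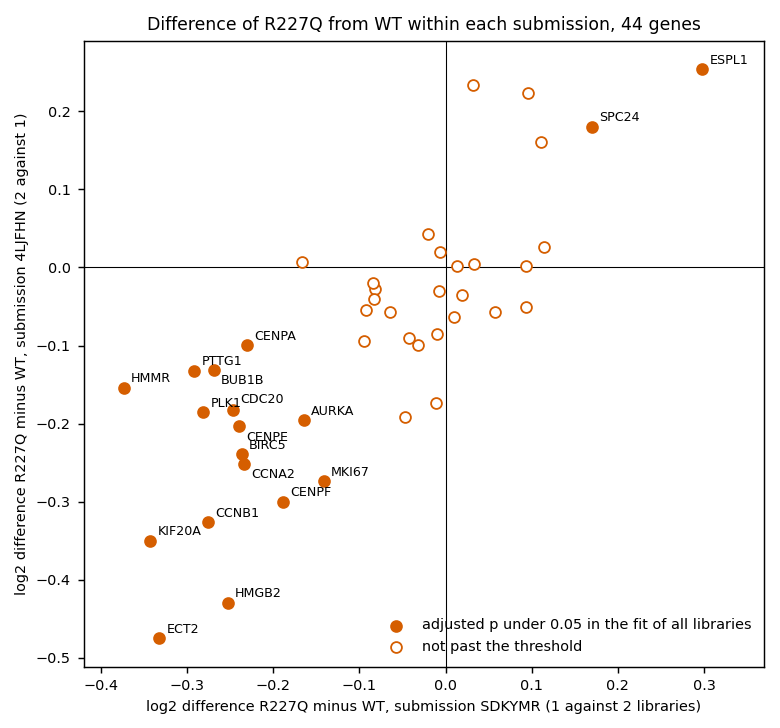
Difference of mean log2 CPM, R227Q minus WT, within SDKYMR (horizontal, 1 against 2 libraries) and within 4LJFHN (vertical, 2 against 1), 1 point for each of the 44 genes; filled points passed the threshold in the fit of all libraries. The filled points lie in the lower left corner, except SPC24 and ESPL1 in the upper right, a placement that the choice of called genes largely sets.

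More of these genes passed between the submissions than between genotypes. Between submissions, 23 of the 44 were higher in SDKYMR, 9 were lower and 12 did not pass, beside 23.0% higher and 20.8% lower among all genes tested. The genes did not go one way: UBE2C (log2 difference 1.14), HMGB2 (0.72), AURKB (0.61), PLK1 (0.57), CDK1 (0.43) and MYBL2 (0.43) were higher in SDKYMR, while CENPE (-0.37), TOP2A (-0.36), CENPF (-0.35), MKI67 (-0.32) and ECT2 (-0.30) were lower there. Messages called lower in the mutants are found on both sides of that split, and CCNB1 (0.02) and PTTG1 (0.04) hardly differed between submissions.

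The 2 mutants were not told apart by any of the 44 genes. H448L minus R227Q ran from -0.12 for TTK to 0.16 for CENPE on the log2 scale, with a median standard error of 0.05, and 0 genes passed, where 0.0828% of all genes tested were higher in H448L, 0.124% lower and 0.207% called in either direction. Of the 44, 7 had an unadjusted p under 0.05: CENPE, CENPF, KIF23, PRC1, MKI67 and HMGB2, higher in H448L, and CDC20, lower in H448L. DESeq2 and limma-voom also called 0. CENPF was 0.15 ± 0.05 higher in H448L (adjusted p = 0.193) and CDC20 0.10 ± 0.04 lower (adjusted p = 0.374). A missed threshold does not show that the mutants act alike on these genes.

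Related genes outside the 44 were counted from lists chosen from textbook knowledge. Earlier results of these data were known at that choice, so the shares are no separate check. Their shares stand beside 9.91% lower and 7.5% higher in R227Q and 4.99% lower and 2.97% higher in H448L over all genes tested, and beside 20.95% and 11.98% lower among genes of at least 30 CPM in R227Q and in H448L. Of 39 other G2 and M genes, 10 were lower (25.6%) and 2 higher (5.13%) in R227Q, and 3 were lower (7.69%) and 1 higher (2.56%) in H448L. DLGAP5, a spindle protein, was at -0.31 ± 0.05 (adjusted p = 0.000132) in R227Q and -0.15 ± 0.06 in H448L, and ASPM, which focuses spindle poles, at -0.26 ± 0.05 (adjusted p = 0.000528) in R227Q and -0.16 ± 0.06 in H448L. DEPDC1 was at -0.25 ± 0.05 in R227Q (adjusted p = 0.000899; -0.23 and 0.0596 without WT library 3) and -0.15 ± 0.06 in H448L. Of 32 other kinetochore and checkpoint genes, 5 were lower (15.6%) and 1 higher (3.12%) in R227Q, and 2 were lower (6.25%) and 0 higher in H448L. SGO1, shugoshin, the guardian of centromeric cohesion, was at -0.44 ± 0.07 (adjusted p = 4.43e-05) in R227Q and -0.38 ± 0.08 (adjusted p = 0.00312) in H448L, and -0.49 (adjusted p = 0.0516) in H448L without WT library 3. It shares 679 exon bases with SGO1-AS1 on the other strand, so its counts are uncertain. SKA2 was at -0.38 ± 0.05 (adjusted p = 5.49e-07) in R227Q and -0.26 ± 0.05 (adjusted p = 0.00189) in H448L, where it was -0.24 (adjusted p = 0.176) without WT library 3. KNTC1, which brings dynein to kinetochores, was higher in R227Q at 0.33 ± 0.06 (adjusted p = 0.00049), with 0.24 ± 0.08 in H448L.

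Condensin and cohesin genes had 9 of 17 lower (52.9%, beside 9.91% of all genes and 20.95% of abundant genes) and 0 higher in R227Q, and 3 lower (17.6%, beside 4.99% and 11.98%) and 0 higher in H448L. The R227Q median was -0.14. SMC4 of condensin was at -0.45 ± 0.04 (adjusted p = 3.25e-09) in R227Q and -0.26 ± 0.05 (adjusted p = 0.000383) in H448L, or -0.26 (adjusted p = 0.0875) without WT library 3; it shares 1561 exon bases with TRIM59 on the other strand. STAG1 of cohesin was at -0.31 ± 0.05 (adjusted p = 7.64e-05) in R227Q and -0.37 ± 0.06 (adjusted p = 0.000108) in H448L, or -0.37 (adjusted p = 0.0503) without WT library 3. Without the submission term STAG1 was at -0.10 in R227Q and 0.02 in H448L, neither past the threshold. SMC1A was at -0.25 ± 0.05 (adjusted p = 0.000237) in R227Q, or -0.16 (adjusted p = 0.145) without WT library 3, and -0.10 ± 0.05 in H448L. Between submissions 14 of the 17 were lower and 2 higher in SDKYMR.

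The anaphase-promoting complex and its regulators had 6 of 18 lower (33.3%, beside 9.91% of all genes and 20.95% of abundant genes) and 2 higher (11.1%) in R227Q. In H448L 2 were lower (11.1%, beside 4.99% and 11.98%) and 1 higher (5.56%). ANAPC13, a small subunit, was at -0.33 ± 0.06 (adjusted p = 8.44e-05) in R227Q and -0.23 ± 0.07 (adjusted p = 0.0272) in H448L, and FBXO5, the inhibitor EMI1, at -0.32 ± 0.06 (adjusted p = 0.000153) in R227Q and -0.23 ± 0.06 (adjusted p = 0.0253) in H448L. ANAPC16, also a subunit, went the other way, at 0.25 ± 0.05 (adjusted p = 0.000866) in R227Q and 0.26 ± 0.06 (adjusted p = 0.00535) in H448L. Without WT library 3 the H448L values were -0.18, -0.23 and 0.17 for ANAPC13, FBXO5 and ANAPC16, and 0.18 for ANAPC16 in R227Q, none past the threshold. Without H448L library 2 the H448L calls of ANAPC13 (-0.21) and FBXO5 (-0.22) also ended.

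Regulators that sit above the 44 were counted in 3 lists. Over all genes tested, 9.91% were lower and 7.5% higher in R227Q, and 4.99% lower and 2.97% higher in H448L. Among genes of at least 30 CPM, 20.95% were lower in R227Q and 11.98% in H448L, near several of the shares below. Of 15 genes of the DREAM and MuvB complexes and their partners, 3 were lower (20%) and 0 higher in R227Q, and 2 were lower (13.3%) and 0 higher in H448L. These were NFYC (-0.20 in R227Q, -0.19 in H448L) and TFDP2 (-0.22 in R227Q, -0.25 in H448L) in both, and NFYA (-0.30) in R227Q, which together are subunits of the CCAAT-binding factor and an E2F partner. Of 17 G1 and S regulators, 4 were lower in R227Q (23.5%) and 1 in H448L (5.88%), with 0 higher; CDK6 was at -0.26 and CDC25A at -0.18 in R227Q, and CDK4 at -0.15 in R227Q and -0.16 in H448L. Of 13 tested CDK inhibitors and G2 arrest genes, 2 were higher (15.4%) and 2 lower (15.4%) in each mutant. GADD45G, a stress gene that inhibits the cyclin B kinase, averaged 52.6 CPM in R227Q and 54.5 CPM in H448L, against 28.4 CPM in WT, at 0.71 ± 0.07 (adjusted p = 7.92e-09) in R227Q and 0.59 ± 0.08 (adjusted p = 5.4e-06) in H448L. CDKN1A, p21, was scarce, with a mean of 6.22 CPM in R227Q, 5.17 CPM in H448L and 6.26 CPM in WT, and its values of 0.13 ± 0.15 in R227Q and 0.04 ± 0.19 in H448L did not pass. CDKN2C was at -0.15 in R227Q and -0.23 in H448L.

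Most counts of these lists shrank without WT library 3. In R227Q the genes lower were then 3 of the other G2 and M genes, 2 of the kinetochore list, 2 of condensin and cohesin, 3 of the anaphase-promoting complex, 0 of the DREAM list and 0 of the G1 and S list. In H448L they were 0 of each. Over all genes, 689 were lower in R227Q and 167 in H448L without WT library 3, in place of 1676 and 844. With upper-quartile scaling the kinetochore list had 3 lower and 4 higher in R227Q, and the CDK inhibitor list 0 lower and 2 higher. Without R227Q library 1 the R227Q counts were 6, 2, 5, 2, 1 and 2 in the same order, with 744 lower over all genes. Among the genes of the last 3 lists named above, the R227Q calls of NFYC (-0.16), TFDP2 (-0.28), NFYA (-0.29), CDK4 (-0.13), CDK6 (-0.12), CDC25A (-0.09) and CDKN2C (-0.18) ended without WT library 3. So did the H448L calls of NFYC (-0.14), TFDP2 (-0.33), CDK4 (-0.13) and CDKN2C (-0.26). Several of these rested on other libraries too. Without R227Q library 1, TFDP2 (-0.17), CDK4 (-0.18), CDKN2C (-0.12) and NFYA (-0.31) did not pass in R227Q, and NFYA missed whichever R227Q or WT library was left out (-0.31 to -0.29). CDC25A and CDKN2C also missed without R227Q library 2 (-0.16 for CDC25A and -0.15 for CDKN2C) or R227Q library 3 (-0.17 for CDC25A and -0.15 for CDKN2C), and CDKN2C without WT library 1 (-0.13). In H448L, NFYC missed without WT library 2, H448L library 2 or H448L library 3 (-0.22 to -0.15), CDK4 without WT library 1, WT library 2 or H448L library 2 (-0.17 to -0.11) and TFDP2 without WT library 1, H448L library 1 or H448L library 2 (-0.25 to -0.23). GADD45G held in both comparisons with each library left out in turn.

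The 44 genes spanned a wide range of levels. Divided by the length of their merged exons, CDC20 was the most abundant at 268.5 CPM per kb over the 9 libraries, ahead of PTTG1 (178 CPM per kb), HMGB2 (163 CPM per kb) and MYBL2 (128 CPM per kb). ESPL1 (4.59 CPM per kb) and UBE2C (3.26 CPM per kb) were the lowest by this mean. The order at the low end changed with the submission: UBE2C had 4.96 CPM per kb in SDKYMR, NDC80 4.93 and ESPL1 4.91, while in 4LJFHN UBE2C had 2.4, ESPL1 4.43 and NDC80 6.29 CPM per kb. PTTG1 and HMGB2 changed places between submissions, since HMGB2 was the higher of the 2 in SDKYMR libraries per length and the lower in 4LJFHN libraries. The labels do not say whether reads cover whole transcripts or their ends, and this order would not hold in the second case. The median level of the genes called lower was 142.5 CPM in R227Q and 193.8 CPM in H448L, and that of the genes not called was 56.4 CPM in the R227Q comparison and 55.9 CPM in the H448L comparison.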

How the data were processed

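PolyA RNA of 9 Hap1 libraries was measured, per the labels' protocols with poly-A capture, second strand synthesis and tagmentation by a sequencing service. Per the file headers the authors deposited estimated counts and CPM for each gene. Per the submitters' processing notes the build was GRCh38; for aligner, counting program, annotation release and strand setting, names and versions were not given in the sources used here. The deposited CPM equalled the count over the library total within 1e-05; 89.05% to 90.1% of the values were whole, and counts were rounded for testing. After 92 ERCC spike-in entries were left out, each library held 9900892 to 12991050 counts.

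Counts were tested with edgeR 4.0.16 (glmQLFit, glmQLFTest; R 4.3.3) after filterByExpr and TMM scaling, with terms for genotype and submission over all 9 libraries (5 residual degrees of freedom) and Benjamini-Hochberg adjustment over 16908 genes at 0.05. Standard errors are the fold change over the root of F. Within-submission values are means of log2 CPM with a prior count of 2. The fit was checked on simulated data drawn without a difference between submissions, so that check does not cover the submission term. Alternatives were DESeq2 1.42.0, limma-voom (limma 3.58.1), RLE and upper-quartile scaling, a filter at a mean of 10 counts, no filter beyond 1 count in any library, no submission term, 4LJFHN alone, 2 groups only, a replicate block and each library left out; the 30 CPM limit was added after seeing the data. Exon lengths and overlaps came from GENCODE on GRCh38.

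The 44 members and all lists were chosen with earlier results of these data known. Every member is accounted for. Given in full were CCNB1, CDK1, PLK1, AURKA, CDC20, TOP2A, MKI67, FOXM1 and MYBL2, with the 2 called members of smallest p per role and comparison; of each further list, the 3 genes of smallest p in either comparison with WT, and SARS2 and CDKN1A. SPC24, ESPL1 and CENPH are named beyond that rule, for their values. Some values of genes outside the 44 are not reported here.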

Additional observations from a re-analysis of the deposited data

Results flagged for a closer look

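The test of the difference between the mutants, edgeR's H448L against R227Q, singled out 2 related genes outside the 44. SMC4, the condensin subunit, was 0.19 higher in H448L on the log2 scale (adjusted p = 0.0374). It averaged 297 CPM in H448L and 239 CPM in R227Q, and against WT, with 297.5 CPM, the fitted fold changes were -0.26 in H448L and -0.45 in R227Q. CENPH, a subunit of the inner kinetochore, was lower in H448L by a log2 value of -0.21 (adjusted p = 0.0353). It averaged 214 CPM in H448L and 223 CPM in R227Q, against 184.8 CPM in WT, with fold changes against WT of -0.10 in H448L and 0.11 in R227Q, neither past the threshold; it was chosen after its value was seen. Means over libraries mix the submissions, which the fit separates. Both calls ended in 4LJFHN alone, SMC4 at 0.19 (adjusted p = 0.118) and CENPH at -0.21 (adjusted p = 0.0768). They also ended without R227Q library 1, R227Q library 3, H448L library 2 or H448L library 3, where SMC4 was at 0.16 to 0.20 and CENPH at -0.22 to -0.17, and that of SMC4 without R227Q library 2 (0.20).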

How the results depend on the processing

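The count of the 44 genes called was 18 in R227Q and 13 in H448L, and 0 in H448L against R227Q under every alternative run. R227Q counts were 15 to 18 with DESeq2, limma-voom, the other scalings and filters and 2 groups only, 8 in 4LJFHN alone and 1 without the submission term; leaving out single libraries gave 8 to 17. H448L counts were 10 to 13 with the tools, scalings and filters, 7 in 4LJFHN alone, 7 with 2 groups only and 1 without the submission term; leaving out single libraries gave 4 to 12. The causes were not tested. The replicate block gave 17 in R227Q and 9 in H448L; the numbers do not pair the libraries, since deviations of same-numbered libraries correlated at 0.66 for R227Q 1 with WT 1, -0.56 for R227Q 2 with WT 2 and 0.66 for R227Q 3 with WT 3, positive where the pair shares a submission, and at -0.40, 0.12 and -0.38 after the submission term. Over all genes, R227Q calls were 2944 (1557 with DESeq2, 312 without the submission term, 1138 in 4LJFHN alone, 1093 without WT library 3, 1278 without R227Q library 1), and 1268 were higher and 1676 lower, against 1565 and 1335 with upper-quartile scaling. H448L calls were 1347 (694, 147 and 734 under the first 3 of these, 756 with 2 groups only, 253 without WT library 3). H448L against R227Q gave 35, with 54 by DESeq2, 122 for every gene with a count, 1 without the submission term, 22 with 2 groups only and 4 to 91 leaving out single libraries. Values of genes that had not passed changed sign, and so did that of STAG1 in H448L, which had been called at -0.37. In R227Q, CDK1 was at 0.0059 with upper-quartile scaling, and without the submission term TOP2A was at 0.067 and CDKN1A at -0.0405. In H448L without that term, CDK1 was at -0.29, TOP2A 0.20, MKI67 0.12, CDKN1A -0.33, CENPH 0.16 and STAG1 0.0192. CDK1 in H448L was at -0.0054 for every gene with a count. CDKN1A in H448L was at -0.0384 in 4LJFHN alone, -0.0345 with 2 groups only and -0.0941 with the block. Leaving out single libraries gave, in H448L, -0.014 to 0.0251 for CDK1 (-0.0024 without WT 1, -0.014 without H448L 3), -0.0286 to 0.0261 for TOP2A (highest without WT 3), -0.108 to 0.006 for MKI67 (highest without WT 3) and -0.0944 to 0.142 for CDKN1A (lowest without H448L 2). Depth limits what UBE2C and CDKN1A can show, and 2 of the 15 CDK inhibitor and G2 arrest genes had too few counts to be tested.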
